A study of Drosophila melanogaster with 8 samples.

Results

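The 36 genes described here encode proteins of the cell surface by which neurons recognise and adhere to each other. They are 14 Beat genes, 8 Side genes, the 4 Dscam genes, the teneurins *Ten-a* and *Ten-m*, the leucine-rich repeat genes *Con*, *caps* and *trn*, the fasciclins *Fas1* and *Fas3*, the N-cadherins *CadN* and *CadN2*, and the receptor phosphatase *Lar*. Beat and Side genes were taken by their symbols and the others from a list of names. All 36 were found among the 17137 reference genes of the tables, and all 36 were among the 10111 genes tested, those that reached a TPM of 1 in 2 or more of the 8 libraries. TPM is an expression level scaled for library size and transcript length. Levels can be set side by side between genes only roughly, since overlapping genes may share reads and the level of some, such as *Fas3*, depends on the measure used.

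RNA was sequenced from cells sorted out of the central brain, without the optic lobes, of adult *w1118* *Drosophila melanogaster* aged 2 to 7 days. The *fru*+ cells carried mCD8-GFP under Fru-GAL4, a driver that reports the promoter of *fruitless* used for its sex-specific transcripts, and the *fru*- cells were GFP-negative cells sorted beside them, so the signs name reporter status. Males and females of both kinds made 4 groups of 2 libraries, and the comparisons separate reporter status from sex. Male *fru*+ cells were the group sorted for the male protein FruM, which Kenyon cells among the male *fru*- cells may also make. All groups shared 1 genotype, given in the labels as UAS-mCD8-GFP over MB247-Gal80 with Fru-GAL4 over +, and in the methods with a balancer chromosome opposite Fru-GAL4. MB247-Gal80 kept GFP out of mushroom body Kenyon cells, so Kenyon cells that use *fru* were among the *fru*- cells of both sexes. Each library pooled the cells of many brains, and the male and female cells that share a replicate number were sorted in the same session.

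Beat and Side proteins belong to the immunoglobulin superfamily and bind each other across cells. Beat-Ia is carried by motor axons, which it lets respond to Side on the surface of the cells along their path, and other pairs are known, such as Beat-IIb with Side-IV and Beat-VI with Side-II. Dscam proteins bind copies of themselves, and the many splice forms of Dscam1 let the branches of a neuron recognise and avoid each other. Teneurins match pre- and postsynaptic partners, Capricious, Tartan and Connectin are adhesion proteins with leucine-rich repeats, and the fasciclins and N-cadherin hold like cells and axons together. Lar is a receptor tyrosine phosphatase of growing axons and synapses. In the brain these families are best known for the choice of synaptic partners during development.

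Between 3.16 and 4.93 Gb of each library were aligned, and no read counts were used, so no counting interval is given for a value. The labels held in all 8 libraries, with *fru* at 56.2 to 71.6 TPM in *fru*+ cells against 3.745 to 15.1 in *fru*- cells, and *lncRNA:roX1*, which coats the male X chromosome, at 3452 to 5067 TPM in males against 1.71 to 7.32 in females. The 5 neuronal markers (*elav*, *nSyb*, *brp*, *Syt1* and *para*) summed to between 1856 and 3387 TPM. The 8 glial markers summed to more in *fru*- cells, at 1716 to 1958 TPM in males and 964 to 2553 in females, against 766 to 859 and 522 to 789 in *fru*+ cells. Single markers did not all follow, since *repo*, *wrapper*, *moody*, *Gs2* and *Gat* overlapped between *fru*+ and *fru*- libraries. The glial identity factor *repo* itself was at 0.66 to 8.24 TPM. The 7 Kenyon cell markers summed to 322 to 549.5 TPM in *fru*+ cells and 509 to 1016 in *fru*- cells. These sums overlapped, as did *mub*, *rut* and *Pka-C1* alone. Muscle, blood cell and neuroblast markers summed to 3.24 TPM or less, with the neuroblast factor *wor* at 0 in all 8 libraries. Fat body markers summed to 1.23 to 14.03 TPM, and photoreceptor markers to 54.8 to 94.2 TPM, of which *norpA* made up 53.1 to 84.1. The part of these cell types in the results was not tested. In such bulk libraries, fewer cells of a type and less RNA per cell cannot be told apart.

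Female libraries of the same group differed in the level of nearly all of these genes. In female *fru*+ cells 34 of the 36 were higher in replicate 1 than in replicate 2, with a median log2 difference of 0.55, while the median over all tested genes was 0.01. In female *fru*- cells only 5 of the 36 were higher in replicate 1, with a median of -0.33, against -0.04 over all tested genes. The medians of the male replicates were 0.13 in *fru*+ cells, against -0.11 over all tested genes, and -0.05 in *fru*- cells, against -0.17. The 36 genes are long, with a median longest transcript of 5018 nt against 1850 nt for all tested genes, and 29 of them fall in the longest of 4 equal groups of tested genes by transcript length. That group as a whole shifted the same way, by a median of 0.31 in female *fru*+ and -0.16 in female *fru*- cells. The summed neuronal markers moved with these shifts in *fru*+ cells, at 3387 TPM in replicate 1 and 2137 in replicate 2, and in *fru*- cells, at 1856 and 2229 TPM. The summed glial markers were at 789 and 522 TPM in these female *fru*+ libraries and at 2553 and 964 in the *fru*- ones. Kenyon cell markers summed to 549.5 and 322 TPM in female *fru*+ and 509 and 755 in female *fru*- cells. The part of these markers in the shifts was not tested. Medians over the 36 genes are given with and without the female libraries they rest on.

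**Figure D1:**
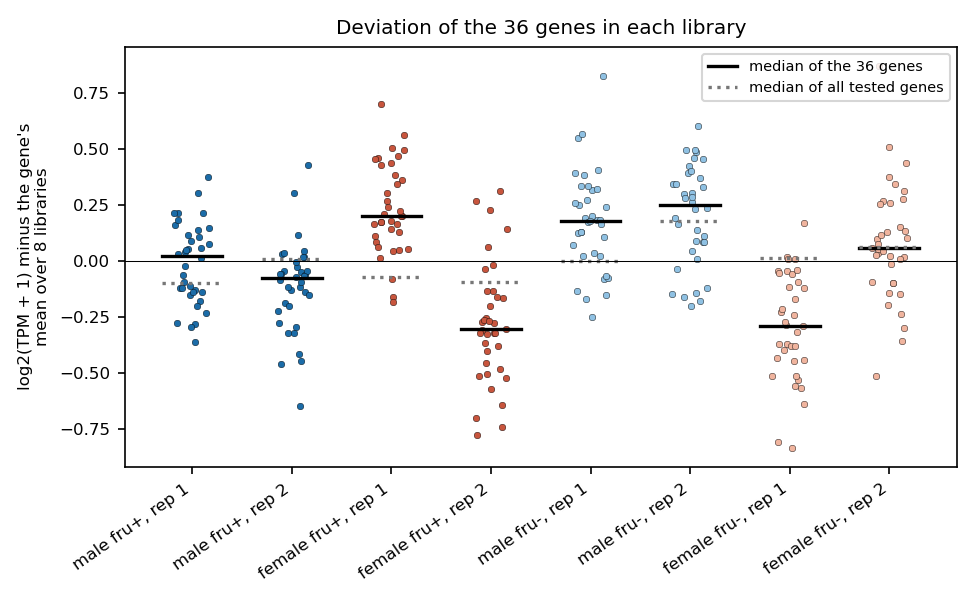
Deviation of each of the 36 genes from its own mean over the 8 libraries, on the log2(TPM + 1) scale, by library. Points are genes, solid bars the median of the 36 genes and dotted bars the median of all tested genes. The 36 genes sit together above their means in replicate 1 of female *fru*+ cells (median 0.20) and below them in replicate 2 of female *fru*+ cells (-0.30) and replicate 1 of female *fru*- cells (-0.29).

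Every one of the 36 genes was detected in every library, at mean levels that spanned 208-fold. *Fas1* was the highest at a mean of 1063 TPM and *Dscam1* the lowest at 5.11 TPM, with a median over the genes of 48.4 TPM. The mean of 30 of the 36 exceeded the median of all tested genes, 23.3 TPM. The order of the genes was much the same everywhere, with Spearman's rho between 0.902 and 0.984 over the 28 pairs of libraries, which share the genes and their lengths. *Fas1* was first and *beat-VI* second in all 8 libraries, and *Dscam1* was last in all 8.

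**Figure D2:**
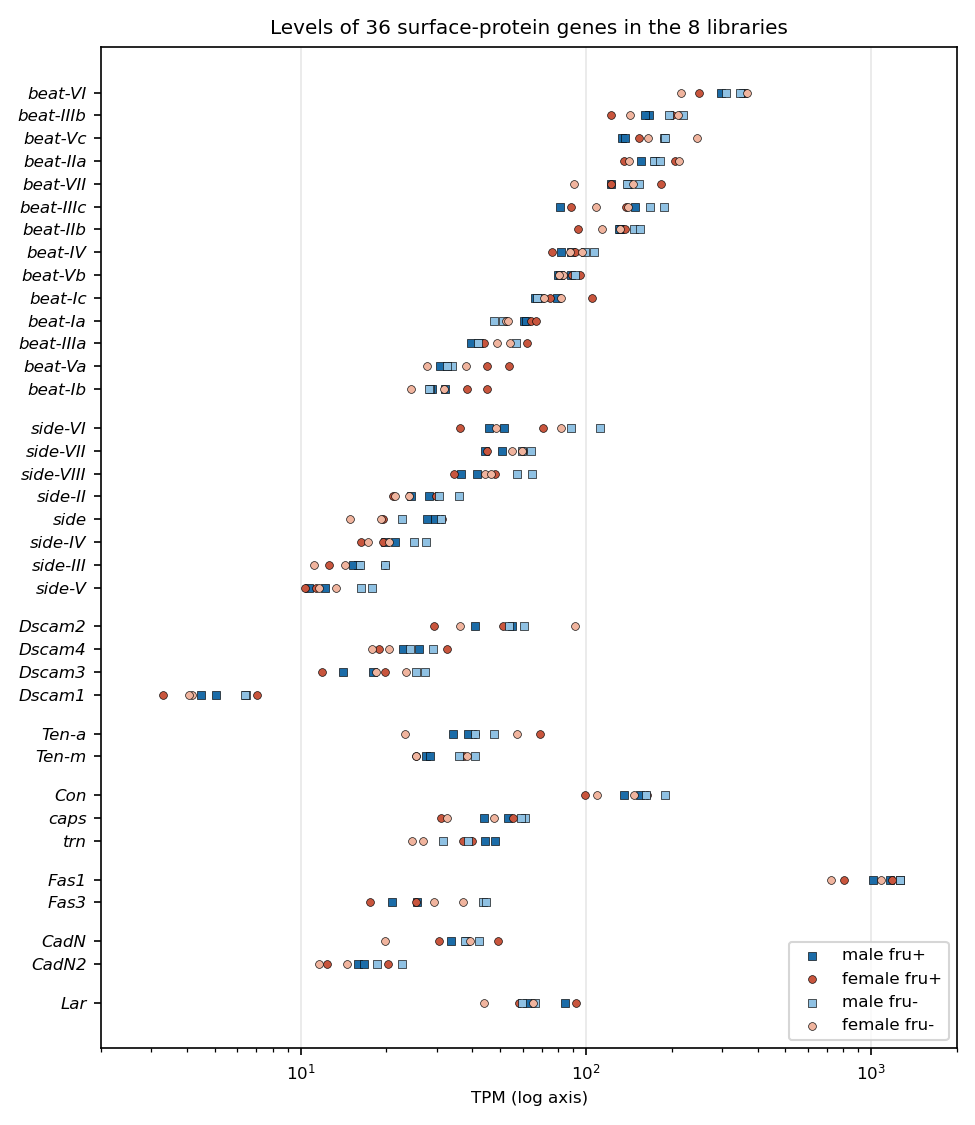
TPM of each gene in each of the 8 libraries on a log axis, grouped by family and ordered by mean level. Squares are male and circles female libraries, dark *fru*+ and light *fru*-. Beat genes range from a mean of 32.1 to 312 TPM and Side genes from 12.9 to 66.9.

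Between *fru*+ and *fru*- cells of both sexes together, *Fas3* was the single gene of the 36 to pass limma's adjusted threshold of 0.05, and it fell. That is 2.78% of the 36, against 5.29% of all tested genes, of which 3.80% were called lower. Its level was 1.70-fold lower in *fru*+ cells, a log2 fold change of -0.76 with a standard error of 0.18 and a limma adjusted p of 0.0409. The 36 genes had a median log2 fold change of -0.09, close to the -0.12 of all tested genes, with 14 above 0 (38.9%, against 36.2% of tested genes) and 22 below. An unadjusted limma p under 0.05 was found for 7 (19.4%, against 23.5% of tested genes). For 32 of the 36 the 95% interval of the difference lay within a 2-fold change in either direction. On median-of-ratios scaling, which moves the median of all tested genes from -0.12 to -0.0018, 22 genes stood above and 14 below 0, and *trn* was called higher in place of *Fas3*. Without replicate 2 of female *fru*+ cells the median of the 36 was 0.06, and without replicate 1 it was -0.23. Without replicate 1 of female *fru*- cells it was -0.19, and without replicate 2 it was -0.0043.

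Within males no gene of the 36 passed the adjusted threshold, against 0.514% of all tested genes, and 6 had an unadjusted limma p under 0.05. All 6 were lower in *fru*+ cells, 16.7% of the 36 against 9.65% of tested genes lower by the same measure, and they were *Fas3*, *side-VI*, *side-VIII*, *Dscam3*, *beat-Vc* and *beat-IIIc*. Both male *fru*+ libraries lay below both male *fru*- libraries for 21 genes (58.3%), against 34.1% of tested genes, and above them for 3, *trn*, *beat-Ia* and *beat-Ib* (8.33%), against 15.0%. The median log2 fold change of the 36 in males was -0.27, against -0.14 for all tested genes, and 6 stood above 0 (16.7%, against 35.5% of tested genes). On median-of-ratios scaling these medians became -0.13 and -0.02, with 25 below 0. Scaled to the 5 neuronal markers they were -0.10 and 0.01, with 23 below 0. Without either scaling, the distance between the medians varied with single libraries. The medians were -0.19 and -0.19 without replicate 2 of male *fru*+ cells, and -0.26 and -0.23 without replicate 1 of male *fru*- cells. They were -0.28 and -0.08 without replicate 1 of male *fru*+ cells, and -0.22 and -0.05 without replicate 2 of male *fru*- cells. In these fits 28 to 31 of the 36 stood below 0. The summed glial and Kenyon cell markers were also lower in male *fru*+ cells, and their part in this shift was not tested.

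Within females, again, 0 of the 36 passed, against 0.653% of tested genes, and 4 had an unadjusted limma p under 0.05. *trn*, *beat-Va* and *beat-Ib* had higher values in *fru*+ cells (8.33% of the 36 against 4.16% of tested genes) and *Fas3* a lower one (2.78% against 10.6%). The groups did not overlap for 6 genes higher in *fru*+ cells (16.7%, against 14.1% of tested genes) and 2 lower (5.56%, against 29.4%). The median was 0.08 against -0.11 over all tested genes, with 21 above 0 (58.3%, against 39.4%), but its sign rested on single libraries. It was -0.21 without replicate 1 and 0.31 without replicate 2 of *fru*+ cells, and -0.17 without replicate 1 and 0.23 without replicate 2 of *fru*- cells. On median-of-ratios scaling it was 0.21 with 25 above 0, and scaled to the 5 neuronal markers it was -0.41 with 5 above 0, against -0.56 over all tested genes. With each library left out in turn, the log2 fold change ran from 0.36 to 0.81 for *beat-Va*, from 0.38 to 0.74 for *beat-Ib*, from 0.51 to 0.63 for *trn* and from -0.88 to -0.36 for *Fas3*. The male and female comparisons share no library.

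**Figure D3:**
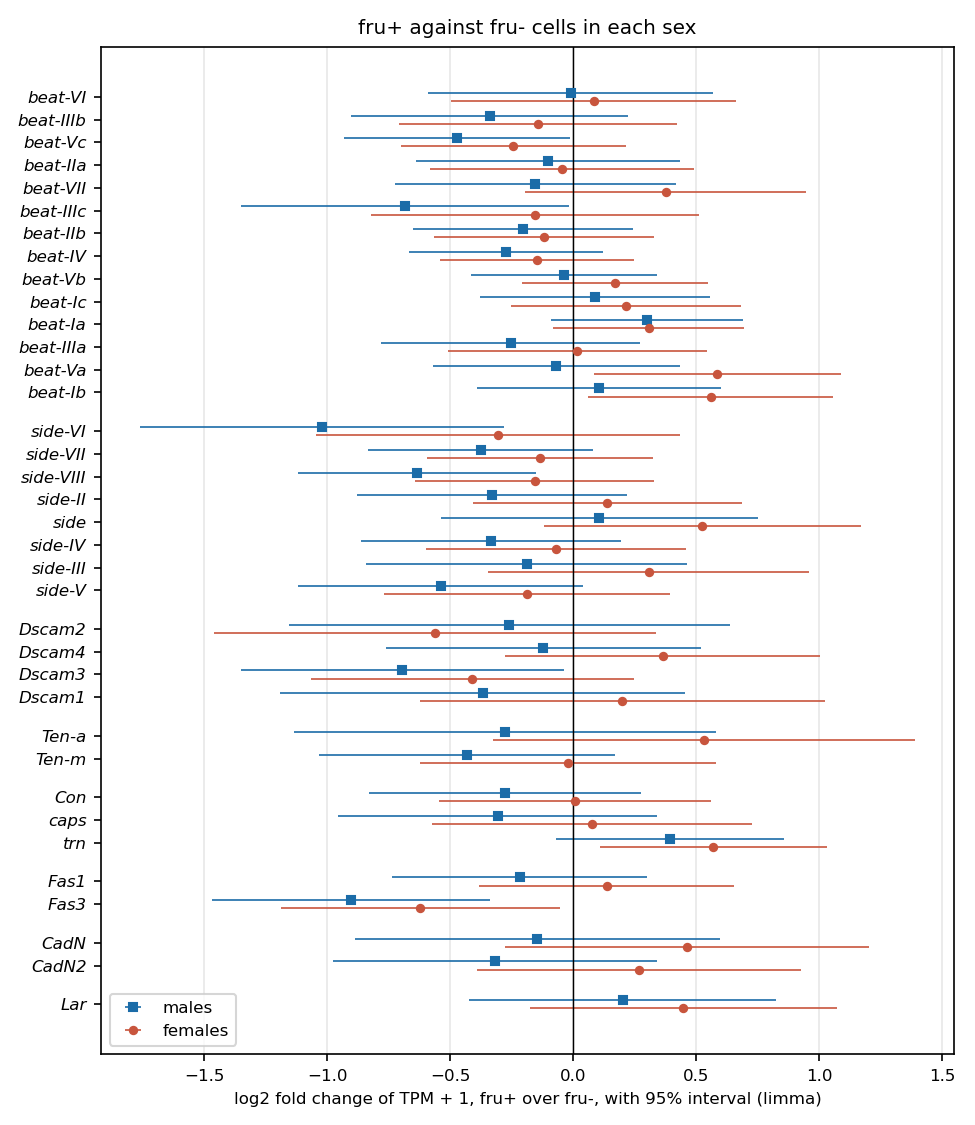
Log2 fold change of TPM + 1 between *fru*+ and *fru*- cells in males (blue squares) and females (red circles) for each of the 36 genes, with limma's 95% interval as bars. *Fas3* lies below 0 in both sexes (-0.90 and -0.62) and *trn* above it (0.39 and 0.57), while for 26 genes in males and 23 in females the whole interval lies within a 2-fold change.

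The Beat genes, the receptor side of the pairs above, were the most abundant family, with sums of 1387 to 1920 TPM over the 14 genes. *beat-VI*, whose product binds Side-II, stood at 356 and 297 TPM in male *fru*+, 355 and 249 in female *fru*+ cells, 347 and 309 in male *fru*- cells and 215 and 366 in female *fru*- cells. Its 4 groups overlapped, and its log2 fold change over both sexes stayed within its standard error. *beat-IIIb* was at 166.5 and 160.5 TPM in male *fru*+, 201 and 122 in female *fru*+, 219.6 and 195 in male *fru*- and 143 and 210.03 in female *fru*- cells. Its male groups were apart and its female groups overlapped. *beat-IIa* was at 156 and 175 TPM in male *fru*+, 206 and 136 in female *fru*+, 174 and 182 in male *fru*- and 141 and 212 in female *fru*- cells, again with overlap. In the pairs named above, which are examples and not all of the known pairs, the Beat gene exceeded the Side gene in every library. Mean levels were 57.2 TPM for *beat-Ia* and 24.4 for *side*, 130.0 for *beat-IIb* and 20.9 for *side-IV*, and 312 for *beat-VI* and 27.0 for *side-II*. Not every Beat gene exceeded every Side gene, with means of 36.9 TPM for *beat-Va* and 66.9 for *side-VI*.

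*beat-Ia* was the single gene of the 36 for which all 4 *fru*+ libraries exceeded all 4 *fru*- libraries (2.78%, against 3.97% of tested genes), and is named here for that after its values were seen. It stood at 60.5 and 61.7 TPM in male *fru*+, 64.2 and 66.7 in female *fru*+, 47.7 and 51.3 in male *fru*- and 52.3 and 53.1 in female *fru*- cells. The difference was small, 1.23-fold with a log2 fold change of 0.30, a standard error of 0.12 and a limma adjusted p of 0.177. It lies beside *beat-Ic* and *beat-Ib* on chromosome 2L (dm6), 8.26 kb from the first. *beat-Ib*, which starts and ends at 15905134 and 15962435 on the minus strand, was at 29.0 and 32.0 TPM in male *fru*+, 45.0 and 38.3 in female *fru*+, 28.3 and 28.2 in male *fru*- and 31.8 and 24.4 in female *fru*- cells. The female *fru*+ libraries were the highest of the 8. *beat-Ic* had no such order, at 66.1 to 105 TPM in *fru*+ and 67.1 to 81.8 in *fru*- cells.

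The 3 beat-V genes lie within a stretch of chromosome 3R and did not follow each other. *beat-Va* (12840560 to 12848419, minus strand) was at 32.7 and 30.8 TPM in male *fru*+, 53.9 and 45.1 in female *fru*+, 34.1 and 32.7 in male *fru*- and 27.7 and 38.1 in female *fru*- cells. Like *beat-Ib*, it was highest in the female *fru*+ libraries. *beat-Vc* (12746036 to 12783216, minus strand) was at 134 and 138 TPM in male *fru*+, 189 and 153 in female *fru*+, 188 and 189.6 in male *fru*- and 165 and 246 in female *fru*- cells. Both male *fru*+ libraries were the lowest of the 8 for this gene, with a log2 fold change of -0.47 in males, a standard error of 0.20 and a limma adjusted p of 0.359. *beat-Vb* varied little, from 79.5 to 95.03 TPM. Of the remaining Beat genes, *beat-IIIa* stood at 39.5 and 42.2 TPM in male *fru*+, 62.1 and 43.8 in female *fru*+, 57.1 and 41.8 in male *fru*- and 54.3 and 48.99 in female *fru*- cells, lower in both male than in both female *fru*+ libraries. *beat-VII* was at 140.2 and 123 TPM in male *fru*+, 183 and 123 in female *fru*+, 153 and 139 in male *fru*- and 90.8 and 146 in female *fru*- cells, with the lowest and the highest value both in female libraries. *beat-IIIc*, *beat-IIb* and *beat-IV* had mean levels of 133, 130.0 and 91.2 TPM.

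The Side genes, the ligands, were less abundant, with sums of 196 to 350.1 TPM over the 8 genes. *side-VI* had the highest mean of them. It stood at 51.5 and 45.9 TPM in male *fru*+, 70.9 and 36.2 in female *fru*+, 112 and 88.8 in male *fru*- and 48.4 and 81.7 in female *fru*- cells. The male *fru*- libraries were the highest of the 8 and the female groups overlapped. In males its value was 2.03-fold lower in *fru*+ cells, the largest difference among the 36 in males. The log2 fold change was -1.02, with a standard error of 0.33 and a limma adjusted p of 0.229. Over all alternatives in males that adjusted p ran from 0.0474 to 0.999996. Fitted to the 4 male libraries alone the adjusted p was 0.0474, and over both sexes it was 0.0490 without replicate 1 of female *fru*+ cells, where the log2 fold change was -0.90, against 0.127 and -0.66 with all libraries. Over all alternatives the adjusted p over both sexes ran from 0.0490 to 0.292.

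*side-VIII* was at 41.5 and 36.5 TPM in male *fru*+, 47.9 and 34.4 in female *fru*+, 57.4 and 64.9 in male *fru*- and 44.4 and 46.4 in female *fru*- cells. Again the male *fru*- libraries were the highest, and the log2 fold change in males was -0.64 with a standard error of 0.22 and a limma adjusted p of 0.254. *side*, the founding member and the ligand of Beat-Ia, was at 27.7 and 29.6 TPM in male *fru*+, 31.2 and 19.5 in female *fru*+, 22.6 and 31.0 in male *fru*- and 14.9 and 19.1 in female *fru*- cells. Its female *fru*- libraries were the lowest of the 8. *side-II* was at 28.1 and 24.5 TPM in male *fru*+, 29.9 and 21.1 in female *fru*+, 30.7 and 36.0 in male *fru*- and 21.5 and 24.0 in female *fru*- cells, highest in male *fru*- cells. The other 4 had means of 12.9 TPM (*side-V*), 15.6 (*side-III*), 20.9 (*side-IV*) and 55.0 (*side-VII*). In males 7 of the 8 Side genes had a log2 fold change below 0, with a median of -0.35. So did 30 of all 36 genes, and 35.5% of tested genes stood above 0 in males, with a median of -0.14.

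Of the proteins that bind copies of themselves, *Fas3* carried the one call. It lies on chromosome 2L (dm6) from 18320102 to 18393441 on the plus strand and encodes an immunoglobulin-domain adhesion protein. Its level was 25.6 and 20.9 TPM in male *fru*+, 25.5 and 17.5 in female *fru*+, 43.5 and 44.7 in male *fru*- and 29.3 and 37.2 in female *fru*- cells. All 4 *fru*+ libraries lay below all 4 *fru*- libraries, with means of 23.2 ± 3.30 and 21.5 ± 5.64 TPM (SD, n = 2) in male and female *fru*+ cells against 44.1 ± 0.80 and 33.3 ± 5.56 TPM (SD, n = 2) in *fru*- cells. No overlap in this direction held for 2.78% of the 36 and 11.6% of tested genes. In males the log2 fold change was -0.90 (standard error 0.25, limma adjusted p = 0.190) and in females -0.62 (standard error 0.25, limma adjusted p = 0.300), and the difference between these, the interaction, was -0.28. The call over both sexes lies close to the threshold. Leaving out replicate 1 of female *fru*+ cells gave a limma adjusted p of 0.0335, and leaving out any one of the other 7 libraries gave 0.0518 to 0.143, with log2 fold changes between -0.89 and -0.63 throughout. Median-of-ratios scaling gave -0.63 with an adjusted p of 0.0723, and read coverage in place of TPM -0.69 with 0.0753. The glial and Kenyon cell sums differ between *fru*+ and *fru*- cells in the same direction as *Fas3*, though the Kenyon cell sums overlap. The part of these markers in the difference of *Fas3* was not tested.

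*Fas1*, by far the most abundant of the 36, encodes a lipid-anchored adhesion protein. It was at 1169 and 1012 TPM in male *fru*+, 1183 and 802 in female *fru*+, 1259.9 and 1267 in male *fru*- and 722 and 1087 in female *fru*- cells. Its difference over both sexes was a log2 fold change of -0.04, smaller than its standard error, and both male *fru*- libraries exceeded both female ones. The Dscam genes had means of 52.4 (*Dscam2*), 24.0 (*Dscam4*), 19.8 (*Dscam3*) and 5.11 TPM (*Dscam1*). *Dscam3* was at 17.9 and 14.1 TPM in male *fru*+, 19.8 and 11.9 in female *fru*+, 25.5 and 27.2 in male *fru*- and 18.4 and 23.4 in female *fru*- cells. The male groups were apart and the female groups overlapped, and over both sexes the log2 fold change was -0.55 with a standard error of 0.21 and a limma adjusted p of 0.150. The splice forms of *Dscam1* were not analysed here.

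The N-cadherin genes, neighbours 8.63 kb apart on chromosome 2L with no reference gene between them, had means of 36.3 TPM (*CadN*) and 16.6 TPM (*CadN2*). *CadN2* was at 16.0 and 16.7 TPM in male *fru*+, 20.3 and 12.4 in female *fru*+, 18.6 and 22.7 in male *fru*- and 11.6 and 14.5 in female *fru*- cells. Its male *fru*- libraries exceeded its female *fru*- libraries by a log2 fold change of 0.62 with a standard error of 0.29, and a limma adjusted p of 0.928.

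Among the leucine-rich repeat genes, *Con* had the highest mean, 145 TPM, and *caps* and *trn*, close relatives 110.6 kb apart on chromosome 3L, had 48.1 and 36.4 TPM. *trn* (13114271 to 13118077, plus strand, dm6) was at 44.2 and 48.2 TPM in male *fru*+, 40.0 and 37.2 in female *fru*+, 31.5 and 38.6 in male *fru*- and 26.8 and 24.6 in female *fru*- cells. Within each sex both *fru*+ libraries exceeded both *fru*- libraries. Within each reporter status both male libraries exceeded both female libraries. Over both sexes its value was 1.40-fold higher in *fru*+ cells, a log2 fold change of 0.48 with a standard error of 0.15 and a limma adjusted p of 0.0889, and it was 0.61 with an adjusted p of 0.0285 on median-of-ratios scaling. Over all alternatives its adjusted p ran from 0.0285 to 0.664. *caps* did not share this order, with 31.2 to 55.5 TPM in *fru*+ and 32.5 to 61.4 in *fru*- cells.

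*Ten-a*, the one gene of the 36 on the X chromosome, was at 38.6 and 34.1 TPM in male *fru*+, 68.9 and 41.0 in female *fru*+, 47.7 and 41.0 in male *fru*- and 23.2 and 57.2 in female *fru*- cells. Its female replicates differed from each other by more than any pair of group means. *Ten-m* ranged from 25.3 to 40.7 TPM and *Lar* from 43.8 to 92.7 TPM, and *Lar* had a log2 fold change over both sexes of 0.32. None of the 3 passed the threshold in any comparison.

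**Figure D4:**
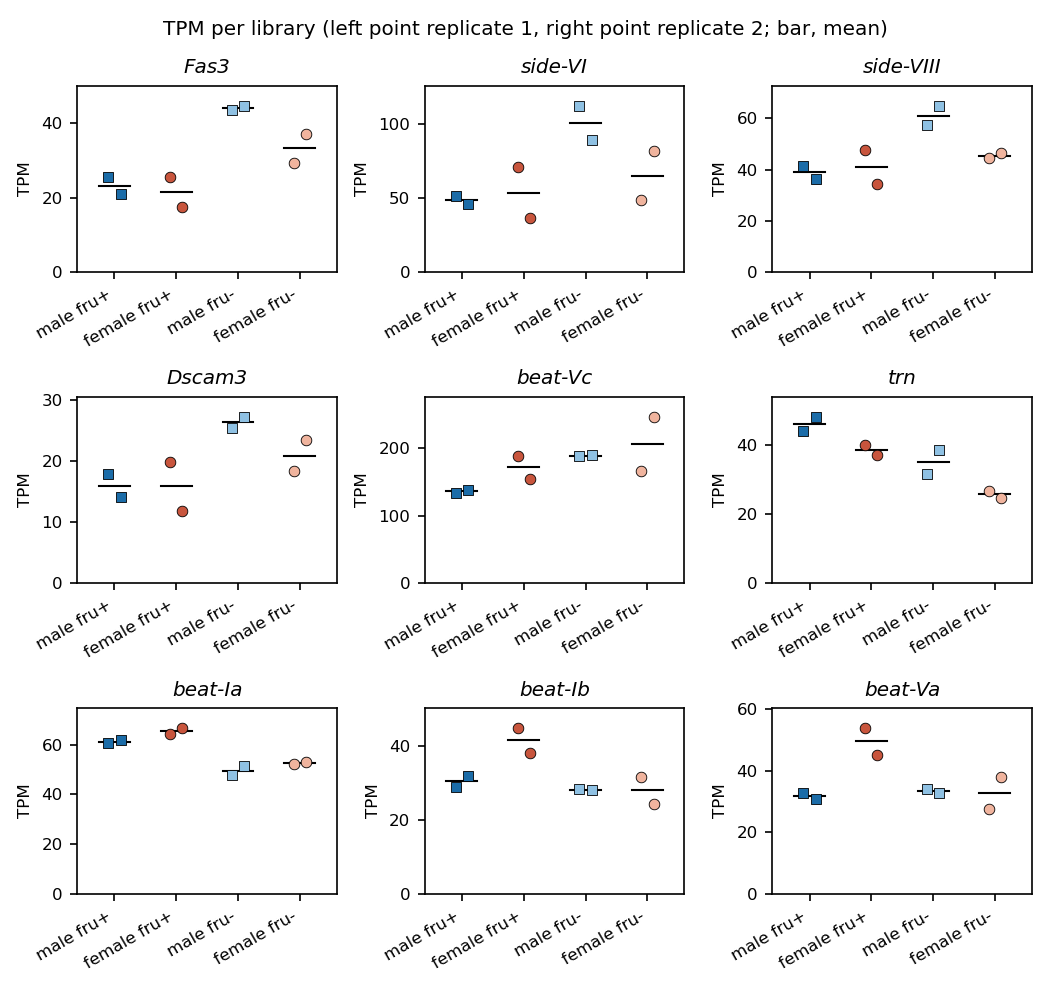
TPM per library of 9 of the 36 genes, with the axis from 0, replicate 1 to the left and replicate 2 to the right in each group, and bars for the mean of the 2. *Fas3* lies between 17.5 and 25.6 TPM in the 4 *fru*+ and between 29.3 and 44.7 TPM in the 4 *fru*- libraries, and *beat-Ib* and *beat-Va* are highest in the 2 female *fru*+ libraries.

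Male and female *fru*+ cells, which differ in sex as well as in FruM, gave 0 calls among the 36, against 0.0890% of tested genes. The 36 had a median log2 fold change of -0.02 against 0.03 over all tested genes, with 16 above 0 (44.4%, against 54.4% of tested genes), and for 33 of them the 95% interval lay within a 2-fold change in either direction. *beat-Va* alone had an unadjusted limma p under 0.05 (2.78% lower in males by this measure, against 1.68% of tested genes). Its log2 fold change was -0.62, a level 1.54-fold lower in males, with a standard error of 0.22 and a limma adjusted p of 0.988. Next by p came *beat-Ib* with a log2 fold change of -0.43, *beat-Vc* with -0.32, *beat-IIIa* with -0.35 and *Ten-a* with -0.54, all lower in males and with limma adjusted p of 1. Male libraries lay wholly below female ones for 7 genes (19.4%, against 12.6% of tested genes) and wholly above for 2, *trn* and *side-IV* (5.56%, against 17.0%). Leaving out a female *fru*+ library moved the median of the 36 from -0.02 to 0.30 (replicate 1) or -0.30 (replicate 2).

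Male and female *fru*- cells also gave 0 calls among the 36, against 0.109% of tested genes, and no unadjusted limma p under 0.05, which 4.99% of tested genes had. All the same, 31 of the 36 had a log2 fold change above 0, higher in males (86.1%, against 55.0% of tested genes), with a median of 0.33 against 0.04 over all tested genes. Both male libraries lay above both female libraries for 19 genes (52.8%, against 20.5% of tested genes) and below them for 2, *beat-Ic* and *beat-Ia* (5.56%, against 13.3%). The 5 genes with the smallest p were *Fas1*, *side*, *side-II*, *CadN2* and *trn*, with log2 fold changes of 0.51, 0.62, 0.53, 0.62 and 0.43, each with a limma adjusted p of 0.928. All 8 Side genes were among the 31, with a median of 0.46. Without replicate 1 of female *fru*- cells the median of the 36 was 0.18, with 23 above 0, and without replicate 2 it was 0.54, with 32 above 0. The summed neuronal markers were also higher in males in this comparison, at 3207 to 3359 TPM against 1856 to 2229. The summed glial markers covered 1716 to 1958 TPM in males and 964 to 2553 in females. After each library was divided by the geometric mean of the 5 neuronal markers, the median of the 36 was -0.31, against -0.56 over all tested genes, and 2 stood above 0.

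The test of whether the *fru*+ to *fru*- difference itself differed between the sexes called 0 of the 36 and 0% of all tested genes, and no gene of the 36 had an unadjusted limma p under 0.05, against 2.34% of tested genes. The interaction was below 0 for 35 of the 36 and above 0 for 1 (2.78%, against 48.6% of tested genes), with a median of -0.32 against -0.01 over all tested genes. Its smallest p belonged to *beat-Va*, with an interaction of -0.65, a standard error of 0.32 and a limma adjusted p of 0.999. *side-VIII* followed with -0.48, *side-VI* with -0.72, *Ten-a* with -0.81 and *beat-VII* with -0.53. The size of this shift also rested on the female libraries. The median was -0.10 without replicate 1 of female *fru*+ cells, with 11 above 0, and -0.16 without replicate 1 of female *fru*- cells, with 8 above 0. Without replicate 2 it was -0.60 (*fru*+, with 1 above 0) or -0.50 (*fru*-, with 0 above 0). Scaled to the 5 neuronal markers it was 0.34, against 0.60 over all tested genes, with 33 above 0.

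The other genes of these pathways were taken from a list of 42 signalling partners, co-receptors and further adhesion proteins, of which 40 were tested. The shifts of the 36 genes were not particular to them, since the medians of these 40 were similar. In males the median log2 fold change of the 40 was -0.25, with 5 above 0 and 62.5% wholly lower in *fru*+ cells. Between male and female *fru*- cells it was 0.27, with 33 above 0. For the interaction it was -0.33, with 10 above 0 (25%). *arm*, the fly beta-catenin that links cadherins to the cytoskeleton and also carries Wnt signals, was the single gene of the list past the adjusted threshold in any comparison, and it fell between *fru*+ and *fru*- cells of both sexes (2.50% of the 40, against 5.29% of tested genes). It stood at 293 and 302 TPM in male *fru*+, 263 and 245 in female *fru*+, 379 and 411 in male *fru*- and 364 and 326 in female *fru*- cells, without overlap between *fru*+ and *fru*- libraries. Its log2 fold change was -0.42 with a standard error of 0.10 and a limma adjusted p of 0.0471, which was 0.0539 to 0.186 in the fits that left out each of the 8 libraries and 0.138 on median-of-ratios scaling. In males the smallest p of the list belonged to *trio*, a gene of axon guidance (log2 fold change -0.71, limma adjusted p = 0.205), and *bdl*, an immunoglobulin-domain protein (-1.50, limma adjusted p = 0.255). In females they belonged to *arm* (-0.44, limma adjusted p = 0.218) and the adaptor *dock* (-0.70, limma adjusted p = 0.258). Between the sexes, *Pak*, the kinase downstream of Dock, and *kirre* had log2 fold changes of 0.58 and -0.98 in *fru*+ cells, each with a limma adjusted p of 1. *kirre* stood at 23.5 and 7.17 TPM in male *fru*+ and 30.7 and 23.7 in female *fru*+ cells, so its log2 difference was -0.37 between the libraries of the first session and -1.59 between those of the second. *Nrx-1*, the fly neurexin, and the kinase gene *Abl* had 0.79 and 0.80 in *fru*- cells, with limma adjusted p of 0.717 and 0.867. For the interaction, *kirre* and *Liprin-alpha*, the latter a binding partner of Lar, had -1.77 and -0.98, each with a limma adjusted p of 0.999, and the former uses the same low library.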

How the data were processed

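Paired 150-nt reads were trimmed, mapped by the authors to dm6 (HISAT2), reduced to unique alignments without duplicates and quantified with StringTie 2.1.1, per the methods and the submitters' processing notes. Libraries were poly-A selected, made from low input and not stranded, so a gene and one overlapping it cannot be fully told apart. The deposited tables give per gene the TPM and FPKM that the authors obtained with StringTie, and the coverage signal, the mean read depth per base. The tests of the study used featureCounts and DESeq2, but count tables were not used here. A deposited table also lists loci assembled from the reads, whose TPM sum to 1000000 apart from the reference genes (956415 to 985750), so TPM are treated as a signal and the assembled loci were left out. TPM were summed per reference gene. Aligned bases came from the ratio of coverage to FPKM.

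Comparisons were fitted to log2(TPM + 1) in limma 3.58.1 (R 4.3.3), with a mean per group over the 8 libraries, a variance trend, and Benjamini-Hochberg adjustment over 10111 genes at 0.05. Fold changes are on this scale, which understates those of low genes. The fit was tested on simulated data. Python 3.11.15 with matplotlib 3.10.9, pandas 2.3.3 and numpy 2.4.6 drew the figures. p-values rest on a spread per gene between biological replicates, pooled over the 4 groups of 2 and drawn towards the trend over all tested genes. A gene therefore has the same standard error in males and in females, although female replicates of these genes differed more.

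The members and lists were chosen with earlier results of these data known. Values in every library are given for genes past the threshold, the 5 with the smallest p in each comparison and the 5 with the highest mean, and *beat-Ia*, outside this rule, after its values were seen. The replicate number is a sorting session per the methods. Replicate differences correlated across genes at 0.25 for male *fru*+ with male *fru*-, 0.20 for male with female *fru*+, 0.06 for male with female *fru*- and -0.04 for female *fru*+ with female *fru*- cells. Alternatives were a pseudocount of 0.1, no filter, a mean TPM above 10, median-of-ratios scaling, the 4 libraries of a comparison alone, the replicate block, no variance trend and leaving out each library. Coverage in place of TPM, scaling to 5 neuronal markers and median-of-ratios scaling with the block were added after the data were seen. Coordinates are dm6, as in the tables. No sequences are shown. Splice forms were not analysed here.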

Additional observations from a re-analysis of the deposited data

How the results depend on the processing

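The count of called genes among the 36 was 0 in 5 of the 6 comparisons and 1 (*Fas3*) over both sexes. In males it was 1 (*side-VI*) when the 4 male libraries were fitted alone. Over both sexes it was 0 with no filter on low values, 0 with limma without the trend, 0 with coverage in place of TPM and 0 scaled to the 5 neuronal markers, and it ran from 0 to 2 when each library was left out in turn, the 2 being *Fas3* and *side-VI* without replicate 1 of female *fru*+ cells. The cause was not tested. With the replicate block the count over both sexes stayed at 1, with *Fas3* at a limma adjusted p of 0.0453, and the block changed no other call among the 36. Over all tested genes the block moved the number called in females from 66 to 34. Scaled to the 5 neuronal markers, log2 fold changes turned to -0.14 (*Fas1*), -0.0033 (*side*), -0.10 (*side-II*) and -0.21 (*trn*) between male and female *fru*- cells, and the interaction to 0.18 (*side-VIII*) and 0.13 (*beat-VII*). This scaling rests on 5 genes, of which *para* ranged from 18.6 to 125 TPM. No read counts were used, so the precision of a single value is not known, and with 2 libraries per group the median standard error was 0.25 within a sex and 0.36 for the interaction.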

Other observations

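Other annotated genes lie within or across the span of 11 of the 36 genes at 0.1 of their level or more, and the libraries were not stranded. The largest is *CG46244*, inside *Lar* on the same strand, which stood at 86.3 to 155 TPM over the 8 libraries, above the 66.6 TPM mean of *Lar* itself. *lncRNA:CR44978*, inside *Lar* on the opposite strand, was at 74.9 to 110.4 TPM. The tables list *CG13245* and *CG43816*, both inside *beat-Ic*, at nearly the same TPM in every library, such as 4.14 for each in replicate 1 of male *fru*+ cells. How far the 36 genes shared reads with such genes was not tested.

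Inside *Ten-a* on the X chromosome lies *lncRNA:CR32658*, on the same strand and named here after its values were seen. Its level was 2.65 and 3.20 TPM in male *fru*+, 10.7 and 14.2 in female *fru*+, 2.88 and 4.03 in male *fru*- and 6.73 and 8.46 in female *fru*- cells. All 4 female libraries exceeded all 4 male libraries. The share of tested genes with this order over the 8 libraries was not counted. Male libraries lay wholly below female ones for 12.6% of tested genes in *fru*+ cells and for 13.3% in *fru*- cells. Between male and female *fru*+ cells its log2 fold change was -1.76 with a standard error of 0.33 and a limma adjusted p of 0.151, and between *fru*- cells it was -0.95 with a limma adjusted p of 0.867. *Ten-a* itself overlapped between the sexes over the 8 libraries.

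The 2 measures in the tables disagreed for *Fas3*. Its FPKM, which sums the transcripts of a gene, was 2.38 to 2.56 times what its coverage gives in the 8 libraries, while the median ratio over the libraries was no more than 1.1 for 28 of the 36 genes. For *side* the ratio ran from 1.101 to 1.76.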
